A study of Mus musculus with 9 samples.

Results

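The enteroendocrine lineage genes described here are 9 mouse genes, Neurog3, Neurod1, Pax4, Pax6, Insm1, Nkx2-2, Rfx6, Chga and Chgb, taken by name and not by their values. They are 9 of the 24505 genes in a table of nascent transcription, and 40 of 35798 regions with more H3K27me3 in one culture and 4 of 13607 regions with more in the other were assigned to them. The samples were mouse mini-gut cultures from the duodenum. Nascent transcription was measured by GRO-seq, which labels and sequences RNA that polymerases are extending in isolated nuclei, in 2 libraries each of 3 cultures: RANKL (labelled intestinal M-cell), ENRI (labelled enterocyte) and WENRC (labelled intestinal stem cell). ChIP-seq for H3K27me3 covered 2 RANKL libraries, pooled by the authors, and a lone WENRC library. The labels give no strain, age, culture time or dose, and name no genetic change. The ENRI and WENRC libraries came from mouse1 and mouse2, 1 library of each culture per animal, while the RANKL libraries carry only a number, so nothing says that they came from separate animals and p-values measure the spread between these libraries.

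Enteroendocrine cells are rare hormone-releasing cells scattered through the intestinal epithelium. Neurog3 starts the lineage in secretory progenitors that escape Notch-driven lateral inhibition, and Neurod1, Insm1, Pax4, Pax6, Nkx2-2 and Rfx6 then act in the specification and maturation of the hormone-producing types. Chga and Chgb encode granins, acidic proteins packed with hormones into dense-core granules and used as general markers of endocrine cells. H3K27me3 is the mark laid down by Polycomb repressive complex 2, which commonly covers CpG-rich promoters of developmental factors that are silent. M cells, the antigen-sampling cells over lymphoid follicles, belong to a different branch of the epithelium and are induced in culture by the cytokine RANKL.

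The sequences just before the start of transcription are shown for the genes whose values carry the results below. RefSeq promoter windows of the GRCm38.p6 build (250 bases before the start) matched 7 of the 9 genes, and Pax6 had a window at each of 2 starts. Insm1 and Pax4 had none. The first set shows the granins and the outer Pax6 start, with matches to the cAMP response element TGACGTNA, searched on both strands, in capitals. The windows lie at chr12:102554691-102554940, chr2:132781392-132781641 and chr2:105668646-105668895, all on the + strand, and are printed 5′ to 3′.
Chga: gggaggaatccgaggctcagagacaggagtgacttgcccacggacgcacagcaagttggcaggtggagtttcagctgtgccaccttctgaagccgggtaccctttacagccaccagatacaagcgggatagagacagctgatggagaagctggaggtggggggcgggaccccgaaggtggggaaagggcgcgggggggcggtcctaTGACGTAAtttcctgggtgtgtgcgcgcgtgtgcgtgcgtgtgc
Chgb: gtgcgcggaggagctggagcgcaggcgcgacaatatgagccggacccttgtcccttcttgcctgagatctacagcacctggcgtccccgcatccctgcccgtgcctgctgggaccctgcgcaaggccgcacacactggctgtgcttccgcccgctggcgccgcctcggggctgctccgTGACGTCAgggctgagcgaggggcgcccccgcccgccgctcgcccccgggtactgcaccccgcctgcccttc
Pax6: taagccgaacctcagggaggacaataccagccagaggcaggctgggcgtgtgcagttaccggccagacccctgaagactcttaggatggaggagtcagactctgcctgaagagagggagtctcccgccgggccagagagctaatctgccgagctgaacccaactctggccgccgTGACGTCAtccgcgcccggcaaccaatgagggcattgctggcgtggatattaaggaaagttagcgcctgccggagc
The match was TGACGTAA from position -44 to -37 in Chga, TGACGTCA from -72 to -65 in Chgb, and TGACGTCA from -76 to -69 in Pax6, counted back from the start. These letters occur in 2.52% of the 32851 windows of this length in the RefSeq table. Among the members' windows no other held them, which says only that the letters are absent there. The E-box CAGATG, or its reverse complement CATCTG, was found in the Nkx2-2 window alone of these 8 windows and in 14.4% of all windows, and TATAAA in none of the 8 and in 12.4% of all.

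The second set shows Neurog3 and Neurod1 with each CpG in capitals, because regions of higher H3K27me3 in RANKL spanned both starts. The Neurog3 window lies at chr10:62132840-62133089 on the + strand and the Neurod1 window at chr2:79456637-79456886 on the - strand, in GRCm38.p6.
Neurog3: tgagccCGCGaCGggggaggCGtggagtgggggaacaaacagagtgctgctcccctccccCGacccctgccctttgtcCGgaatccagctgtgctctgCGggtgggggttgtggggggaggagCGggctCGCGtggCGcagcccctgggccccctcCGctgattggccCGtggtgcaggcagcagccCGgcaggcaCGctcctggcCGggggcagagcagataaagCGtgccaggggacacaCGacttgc
Neurod1: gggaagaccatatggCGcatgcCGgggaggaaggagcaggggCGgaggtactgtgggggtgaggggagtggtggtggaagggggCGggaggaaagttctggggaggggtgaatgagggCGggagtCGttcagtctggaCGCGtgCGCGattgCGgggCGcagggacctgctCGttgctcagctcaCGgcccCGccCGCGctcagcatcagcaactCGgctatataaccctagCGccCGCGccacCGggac
Neurog3 held 18 CpGs and Neurod1 22, against a median of 6 and quartiles of 2 and 16 over all windows. Chgb had the highest number among the members, 26, while Chga held 16, each Pax6 window 15, Nkx2-2 8 and Rfx6 2. All but Rfx6 were above the median of all windows. Distances of the Rfx6 H3K27me3 regions refer to different starts within the gene, and which start its single window precedes was not determined.

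The GRO-seq values carry the normalization and log2 transform of the authors, in which genes with few reads are drawn together, so differences of low genes are understated; the depth behind each library is unknown. M cell markers checked the RANKL label: 8 of 8 were higher in RANKL than in ENRI and 7 of 8 than in WENRC at an adjusted p under 0.05 by limma. Sis, a brush-border enzyme of enterocytes, was at 14.52 and 15.45 in ENRI, 13.79 and 13.82 in RANKL and 12.11 and 10.66 in WENRC. Of 8 enterocyte markers, 7 were lower in WENRC and 4 lower in RANKL than in ENRI by the same test. Against WENRC 4 of them were higher in RANKL, with 6 of 8 changes above 0. All 7 of 7 stem cell markers were higher in WENRC than in ENRI, and 5 were higher in RANKL than in ENRI. Between RANKL and WENRC only 1 stem cell marker was higher and 1 lower in RANKL. Among markers of other secretory cells, RANKL exceeded ENRI past the test in 2 of 7 Paneth, 2 of 5 tested tuft and 1 of 7 goblet markers, while 10.4% of all tested genes did, and exceeded WENRC in 2, 1 and 4, with 8.53%. The median change of the goblet list from ENRI was -0.42, with 2 of 7 changes above 0. Neurons share many genes with endocrine cells. Of 7 neuron markers 3 passed the filter on low values. The log2 of the summed level of all 7 was 7.24 to 7.42 in RANKL, 7.52 to 8.18 in ENRI and 7.02 to 7.30 in WENRC. Within this sum Ret was highest in ENRI (6.88 and 7.46) and Snap25 in RANKL (6.47 and 6.37). The file header shows that RANKL libraries were sequenced separately from the others, so sequencing run and RANKL culture cannot be told apart. Replicate differences had a standard deviation over genes of 0.220 in RANKL, 0.699 in ENRI and 0.421 in WENRC on the log2 scale.

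Of the 9 members, 7 reached at least the log2 of 10 in at least 2 libraries and were tested. Pax4, a paired-box repressor of early endocrine specification, lay between 2.40 and 2.81 in all 6 libraries, and Insm1, a zinc-finger factor that promotes endocrine differentiation, lay between 2.76 and 3.15. Both stayed below the filter in every library and had no test. Their values are within the range where this scale draws genes together.

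Compared per kilobase of gene (log2 value minus log2 of the length in kilobases, mean of 6 libraries), the granins led. Chgb stood at 5.57 and Chga at 3.79, and the lowest library of Chgb (4.34) was above the highest of Chga (4.27). Neurog3 followed at 2.84, Neurod1 at 2.58, Pax6 at 1.98, Nkx2-2 at 1.79, Insm1 at 1.31, Rfx6 at 0.71 and Pax4 at -0.29. This order depends on gene length and on a scale that draws low genes together. Before the length was taken off, the means were 3.58 for Neurog3 (1673 bp) and 2.91 for Insm1 (3021 bp). Those of Pax6 (29514 bp) and Rfx6 (52669 bp) were 6.86 and 6.43. The places of the short, low genes are therefore uncertain. From Chga down to Insm1 each neighbouring pair overlapped between libraries, so that neighbours were not resolved. Genes further apart were: the lowest Chga library (3.19) was above the highest of Neurod1 (3.07), and the lowest Neurog3 library (2.40) above the highest of Nkx2-2 (2.24). Rfx6 lay above Pax4 and below Insm1 in all libraries, the latter by a narrow margin (highest Rfx6 library 1.15, lowest Insm1 library 1.16).

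**Figure D1:**
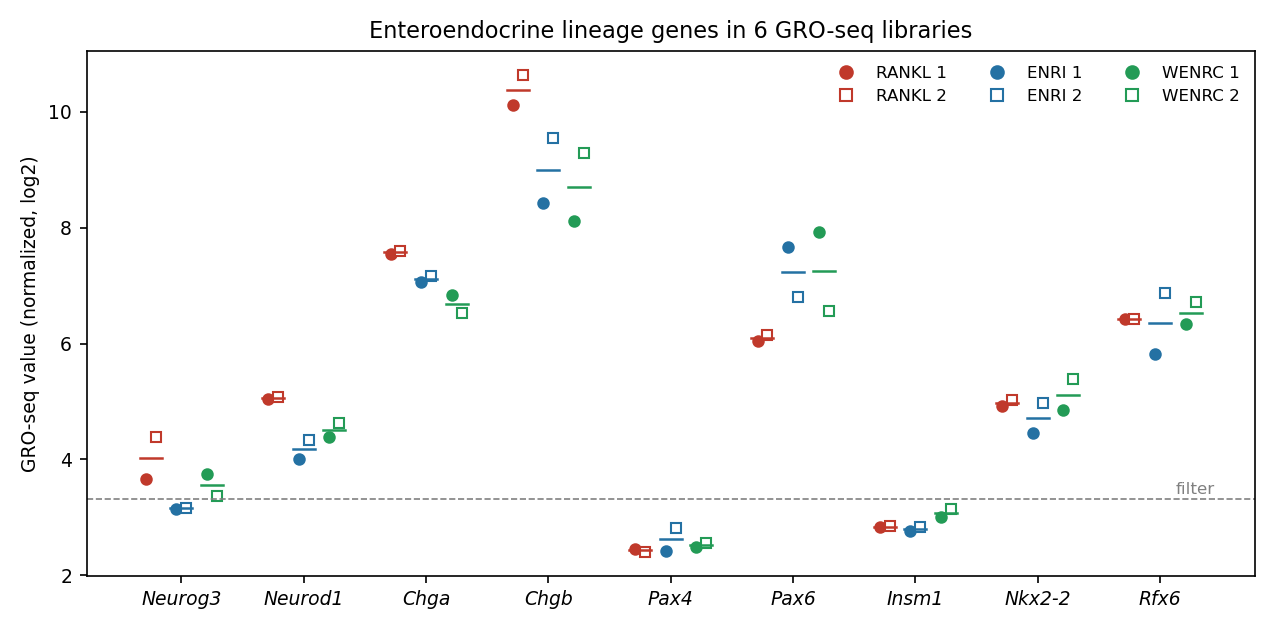
Normalized GRO-seq value (log2) of the 9 genes in each of 6 libraries; circles are library 1 and squares library 2 of each culture, short lines are means of 2, and the dashed line is the filter on low values. Neurod1, Chga and Chgb have both RANKL libraries above all 4 others, and Pax6 has both below.

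The first comparison asked how transcription of the lineage genes in the M cell culture differed from the enterocyte culture. Neurod1 rose in RANKL, and it was the only member to pass the test in limma. Neurog3, Chga and Chgb had both RANKL libraries above both ENRI libraries without passing it, Pax6 had both below, and Nkx2-2 and Rfx6 overlapped. This gave 1 of 7 tested members called, while 20.9% of all 16563 tested genes were called in this comparison, 10.4% as higher and 10.5% as lower in RANKL. Non-overlap toward higher values, seen in 4 of 7, occurred in 32.4% of tested genes, and toward lower values, seen in 1 of 7, in 32.3%. The median change of the 7 was 0.46, against -0.0048 over all tested genes.

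Neurod1, a helix-loop-helix factor acting downstream of Neurog3, measured 5.05 and 5.07 in RANKL, 4.01 and 4.34 in ENRI and 4.39 and 4.62 in WENRC. The RANKL libraries were the highest and nearly equal. The change from ENRI was 0.89 (SE 0.21, adjusted p = 0.0321 by limma), or 1.85-fold on this scale. The call was lost without either RANKL library (adjusted p = 0.180 and 0.202), where the whole table kept only 111 and 64 calls, without either WENRC library (0.0698 and 0.0711), and with the 4 compared libraries alone (0.0700, or 0.140 with a replicate block). In the authors' deposited table Neurod1 differed by 2.48 on the log2 scale with an adjusted p of 0.0475.

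Neurog3 measured 3.66 and 4.38 in RANKL, 3.15 and 3.17 in ENRI and 3.75 and 3.36 in WENRC. RANKL replicate 2 was the highest and the ENRI libraries were the lowest, below the filter. The change from ENRI was 0.87 (SE 0.28, adjusted p = 0.0810 by limma), and 0.50 without RANKL replicate 2. In the authors' deposited table, whose fold changes are on another scale, the same difference was 5.03 with an adjusted p of 0.00586. The size of this change, and whether it passed, differed between the 2 sources.

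Among the granins, Chgb measured 10.13 and 10.64 in RANKL, 8.43 and 9.55 in ENRI and 8.12 and 9.29 in WENRC. Both RANKL libraries were above all others, and library 2 was above library 1 in every culture, by about as much in ENRI as in WENRC. The change from ENRI was 1.40 (SE 0.50, adjusted p = 0.102 by limma), or 2.63-fold, and it was 0.83 without ENRI replicate 1 and 1.96 without ENRI replicate 2, where it passed (adjusted p = 0.0161). The authors' deposited table gave 1.51 with an adjusted p of 0.0135. Chga measured 7.54 and 7.60 in RANKL, 7.06 and 7.17 in ENRI and 6.83 and 6.53 in WENRC. The 3 cultures were ordered without overlap, with RANKL highest and WENRC lowest. The change from ENRI was 0.46 (SE 0.18, adjusted p = 0.129 by limma), and the authors' deposited table gave 0.63 with an adjusted p of 0.321.

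Pax6, a paired-box factor needed for several hormone-producing types, measured 6.04 and 6.16 in RANKL, 7.67 and 6.80 in ENRI and 7.93 and 6.57 in WENRC. RANKL was lowest, and mouse1 exceeded mouse2 in both other cultures, the reverse of Chgb. The change from ENRI was -1.14 (SE 0.49, adjusted p = 0.156 by limma), and -0.70 without ENRI replicate 1. The authors' deposited table gave -1.83 with an adjusted p of 0.0204. The Pax6 row (mm9 chr2:105509053-105538567) overlaps the antisense row Pax6os1 up to 105510487 and the convergent gene Elp4 from 105537477 on. Only the ends of the Pax6 row are thus shared. The strand handling of the counting is not given in the sources used here, so reads in the shared ends cannot be told apart. Pax6os1 measured 6.64 and 6.63 in RANKL, 9.09 and 7.32 in ENRI and 8.66 and 6.58 in WENRC, a pattern with the same high mouse1 libraries.

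Nkx2-2, a homeobox factor of serotonin-producing and other endocrine cells, measured 4.92 and 5.03 in RANKL, 4.45 and 4.97 in ENRI and 4.84 and 5.39 in WENRC. The cultures overlapped, and the change from ENRI was 0.26 (adjusted p = 0.548 by limma). It overlaps the antisense row Nkx2-2os, which measured 6.74 and 6.62 in RANKL, 5.68 and 6.28 in ENRI and 6.16 and 6.70 in WENRC. Rfx6, a winged-helix factor active in mature endocrine cells, measured 6.42 in both RANKL libraries, 5.83 and 6.87 in ENRI and 6.33 and 6.71 in WENRC. The RANKL libraries fell between the ENRI libraries, and the change was 0.07 (adjusted p = 0.913 by limma). A different number of enteroendocrine cells and a different transcription per cell cannot be told apart in any of these bulk cultures.

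The second comparison set the M cell culture against the stem cell culture. Chga rose in RANKL and was the only member to pass the test: 1 of 7, while 12.1% of tested genes were called, 8.53% as higher and 3.62% as lower. The change was 0.89 (SE 0.18, adjusted p = 0.0315 by limma), or 1.86-fold. Chgb differed by 1.68 (SE 0.50, adjusted p = 0.0871), or 3.20-fold, and Neurod1 by 0.55 (SE 0.21, adjusted p = 0.140), both with RANKL libraries above WENRC libraries. Non-overlap toward higher values was found in these 3 of 7, against 34.1% of tested genes. Pax6 differed by -1.15 (SE 0.49, adjusted p = 0.187) and was the 1 tested member with non-overlapping lower values, against 34.5% of tested genes. Its change was -0.47 without WENRC replicate 1 and -1.84 without WENRC replicate 2, and that of Chgb was 1.09 without WENRC replicate 1. The untested Pax4 and Insm1 had both RANKL libraries below both WENRC libraries, at values below the filter, where the scale draws genes together. Pax4 was at 2.46 and 2.40 in RANKL against 2.48 and 2.55 in WENRC. Insm1 was at 2.83 and 2.85 against 3.01 and 3.15.

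Neurog3 differed by 0.47 (SE 0.28, adjusted p = 0.336 by limma), Nkx2-2 by -0.14 (adjusted p = 0.784) and Rfx6 by -0.11 (adjusted p = 0.887), and all 3 overlapped between the cultures. The median change of the 7 was 0.47, against -0.0073 over all tested genes. The Chga call was lost without either RANKL library (adjusted p = 0.209 and 0.255), where no gene of the whole table passed, and without either WENRC library (0.0997 and 0.186). With a replicate block in all 6 libraries Chga was no longer called (0.0607) and Chgb was (0.0156). In the authors' deposited table Chga differed by 1.24 (adjusted p = 0.00500), Chgb by 1.82 (adjusted p = 0.0436) and Pax6 by -2.01 (adjusted p = 0.00333), while Neurod1 differed by 1.34 (adjusted p = 0.171) and Neurog3 by 1.53 (adjusted p = 0.314). The authors' deposited adjusted p called 3 of 7 members here, with 27.8% of tested genes, and 4 of 7 against ENRI, with 19.6%. Both RANKL comparisons share the RANKL libraries, so their values for a gene are not separate evidence.

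The third comparison, stem cell against enterocyte culture, has animals in common. No member passed the test: 0 of 7 by limma, with 0 at an unadjusted p under 0.05 and 0 in the authors' deposited table. That table may have left Neurog3 and Neurod1 out of its adjustment in this comparison, so its 0 may not cover them. Of all tested genes limma called 14.6%, 4.85% as higher and 9.74% as lower in WENRC. Chga differed by -0.43 (SE 0.18, adjusted p = 0.163) with -0.22 in mouse1 and -0.64 in mouse2. Neurod1 differed by 0.33, with 0.39 in mouse1 and 0.28 in mouse2. Neurog3 differed by 0.40, with 0.60 and 0.20, and Nkx2-2 by 0.40, with 0.39 and 0.41. The 2 animals thus gave the same direction for these 4 genes, and also for Chgb (-0.31 and -0.26). They gave opposite directions for Rfx6 (0.51 and -0.16) and Pax6 (0.26 and -0.23). Non-overlapping libraries were found for Neurog3 and Neurod1 toward WENRC, 2 of 7 against 29.3% of tested genes, and for Chga toward ENRI, 1 of 7 against 29.2%. With the animal as a block in the 4 compared libraries the count stayed at 0 of 7, while 124 genes of the whole table passed (0.75%).

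**Figure D2:**
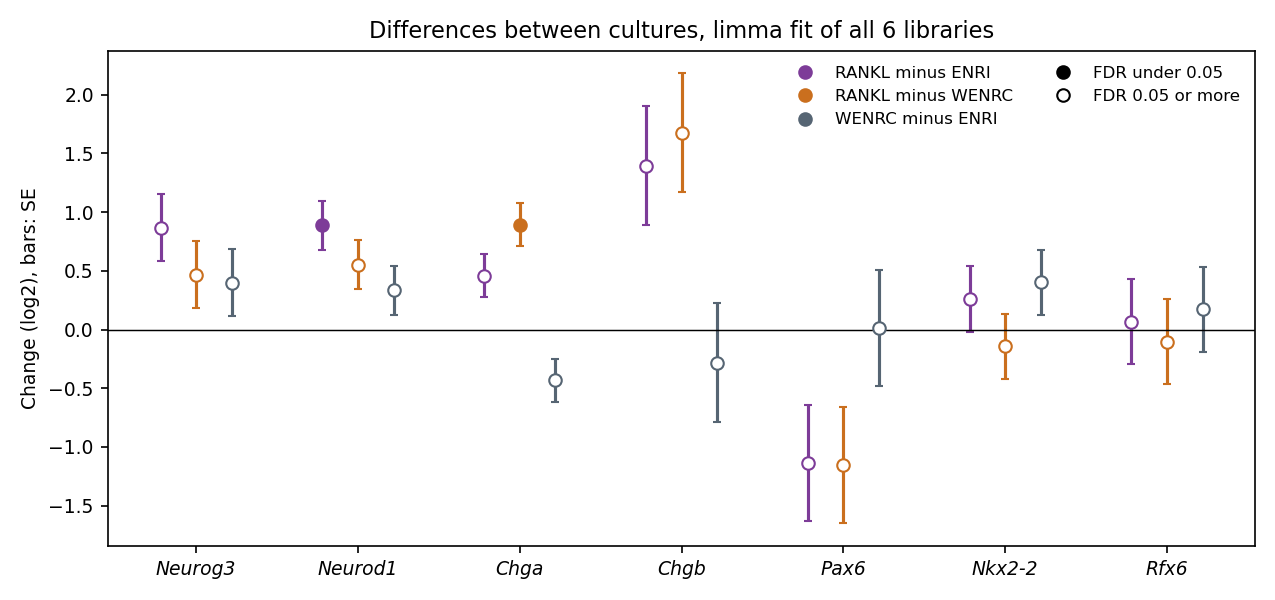
Change between cultures (log2) of the 7 tested genes in the limma fit of 6 libraries; points are estimates, bars are standard errors, and filled points have an adjusted p under 0.05. Only Neurod1 against ENRI (0.89) and Chga against WENRC (0.89) are filled, and Chgb (1.40 and 1.68) has wide bars.

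By the smallest distance between profiles centred on their own mean over the 6 libraries, the genes most like Neurod1 were Ltbp2, encoding a TGF-beta binding protein of the matrix (root mean square distance 0.0520, Pearson r = 0.996), and C1qtnf9, encoding a secreted C1q-like protein (0.0848, r = 0.985). Those most like Chga were Cmip (0.0303, r = 0.998) and Sap25 (0.0407, r = 0.994). These are descriptions over 6 libraries among 16562 other genes, which share libraries and normalization.

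The other genes of the pathway were counted in the same way, beside the 20.9% of all tested genes called against ENRI (10.4% higher, 10.5% lower) and the 12.1% called against WENRC (8.53% higher, 3.62% lower). Of 22 other transcription factors linked to enteroendocrine cells 19 were tested, and against ENRI 5 rose in RANKL and 0 fell, with a median change of 0.62. Sox4, a factor of early secretory progenitors, rose by 3.77 (SE 0.53, adjusted p = 0.00861 by limma), from 9.002 and 7.27 in ENRI to 11.84 and 11.97 in RANKL. Id2, an inhibitor of helix-loop-helix factors, rose by 2.14, the corepressor gene Rcor2 by 1.38 and Rfx3, a winged-helix factor related to Rfx6, by 0.85. Foxa2, outside the naming rule and named after its value was seen, rose by 0.80. Against WENRC 1 rose, Sox4 by 2.59, and 1 fell, Tox3 by a change of -0.92, with a median of 0.11.

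Of 19 granule and secretion genes 16 were tested, and 4 rose against ENRI, with 10.4% of all tested genes, 3 rose against WENRC, with 8.53%, and 0 fell in either. Syt7, a calcium sensor of exocytosis, was at 9.61 and 9.70 in RANKL, 7.08 and 6.37 in ENRI and 7.10 and 7.41 in WENRC, so that it rose by 2.93 and 2.40 (SE 0.27, adjusted p = 0.00312 and 0.00630 by limma). Cacna1a, a voltage-gated calcium channel subunit, rose by 2.23 and 1.32, and Abcc8, the sulphonylurea receptor of the ATP-sensitive potassium channel, by 1.32 and 1.31. Scg5, a chaperone of prohormone convertase, rose by 0.81 against ENRI. The medians were 0.46 and 0.24. Which cells transcribed these genes was not tested.

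The hormone and amine genes did not follow one direction. Of 15 genes 14 were in the table and 8 passed the filter; Gcg, Sst, Pyy, Nts, Iapp and Gast stayed below it. Tph1, the rate-limiting enzyme of serotonin synthesis in enterochromaffin cells, was at 7.45 and 7.83 in RANKL, 6.23 and 6.79 in ENRI and 5.27 and 5.95 in WENRC. It rose by 2.03 against WENRC (SE 0.32, adjusted p = 0.0152 by limma), while the change of 1.13 from ENRI had an adjusted p of 0.0555. Slc18a1, which loads monoamines into vesicles, fell against ENRI, with a change of -1.16 (adjusted p = 0.0155), from 9.18 and 9.71 to 8.32 and 8.25. The peptide hormone genes Gip, Cck, Sct, Ghrl and Tac1 had changes of -0.26 to -0.05 from ENRI and none passed the test in any comparison. The list's median was -0.21 against ENRI and 0.31 against WENRC. Of 10 nutrient-sensing receptor genes 4 were tested and 0 passed in any of the 3 comparisons.

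Lateral inhibition, which limits how many cells switch on Neurog3, was represented by 11 genes, of which 9 were tested. Against ENRI 2 rose and 1 fell, and against WENRC 2 rose and 2 fell, with medians of 0.06 and -0.19. Hes1, the Notch target that represses Neurog3, was at 7.06 and 7.30 in RANKL, 8.46 and 8.32 in ENRI and 8.31 and 8.65 in WENRC. Both RANKL libraries were below all others, and Hes1 fell by 1.21 and by 1.31 (SE 0.19, adjusted p = 0.0108 and 0.0118 by limma). Rbpj, the DNA-binding partner of Notch, rose by 1.72 and 1.23. The ligand gene Dll4 rose by 0.99 against ENRI, the ligand gene Dll1 rose by 1.17 against WENRC, and the receptor gene Notch1 fell by 0.99 against WENRC. Atoh1, which commits cells to the secretory lineage, changed by 0.11 and 0.21 and did not pass (adjusted p = 0.725 and 0.556).

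Between WENRC and ENRI, 5 of the 56 tested genes of these lists passed, with 14.6% of all tested genes (4.85% higher, 9.74% lower in WENRC). Ddc, the decarboxylase of serotonin and dopamine synthesis, fell by 1.58, Slc18a1 by 1.34 and Dll1 by 1.11 in WENRC. Tox3 rose by 1.04 and Dll4 by 0.83. With the replicate number as a block, 3 of these lists' genes were called in the fit of all 6 libraries, with 9.09% of all tested genes. That number is the animal in ENRI and WENRC, and in RANKL its meaning is unknown. In the fit of the 4 compared, where the block is the animal, 0 were called, with 124 genes of the whole table passing. Over the 56 tested genes of these lists, 13 were called against ENRI, with 20.9% of all tested genes, and 10 against WENRC, with 12.1%, and without either RANKL library 0 were called in both comparisons.

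**Figure D3:**
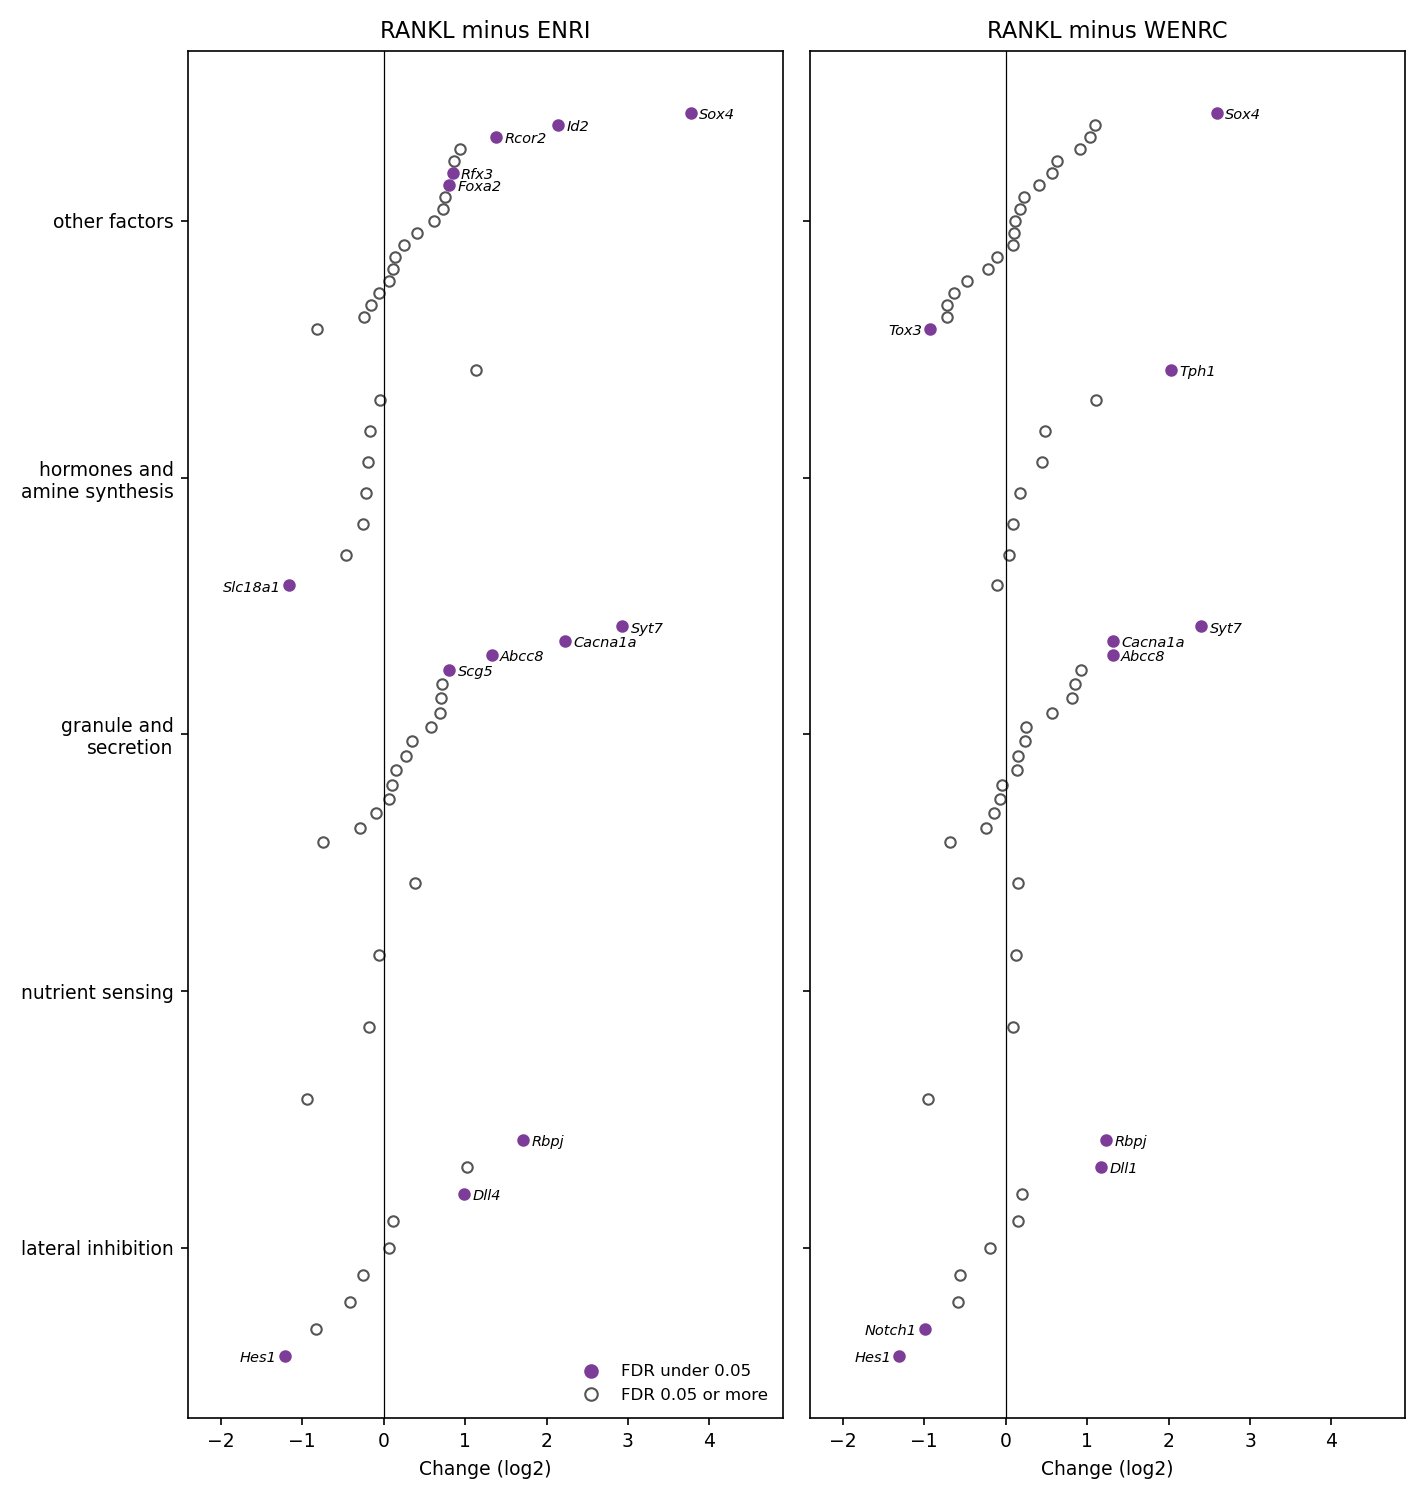
Change (log2) of the 56 tested genes of the other enteroendocrine and lateral inhibition lists, RANKL minus ENRI on the left and RANKL minus WENRC on the right; each point is a gene, filled and named where the adjusted p by limma is under 0.05, and points are spread vertically within a list by rank. Filled points of the factor and granule lists lie to the right except Tox3, and Hes1 lies to the left in both panels.

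H3K27me3 was compared between RANKL and WENRC only, by peaks that the authors called in one culture with the other as background. No replicate check exists, since 2 RANKL libraries were pooled and WENRC was 1 library; tags of both cultures are given at the depth of the pooled RANKL libraries (32.7 M tags), and the fold and p of each region are the authors'. Regions higher in RANKL were assigned to 7 of 9 members, with 31.9% of autosomal genes having such a region, and to 6 of 9 within 5 kb of a start, with 17.9%. Regions higher in WENRC were assigned to 3 of 9 at any distance, with 23.0%, and to 1 of 9 within 5 kb, with 5.3%. The members held 40 regions of the first kind, covering 35972 bp, and 4 of the second, covering 2000 bp. The median fold of the 40 was 2.72, below the 2.92 of all RANKL-higher regions.

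Neurog3 had the widest coverage. A single region of 8224 bp (mm9 chr10:61592754-61600978), from position -3084 to 5140 relative to the start, covered the whole gene. It held 541 tags in RANKL against 226 in WENRC, a 2.39-fold difference. It ranked 39 by tags and 32 by length among the 35798 RANKL-higher regions. Another 2 lay upstream, one with 75 against 28.8 tags and one centred at position -7174 with 18 against 2.7 tags (6.66-fold), and 5 lay between 11.97 and 29.84 kb downstream. No WENRC-higher region was assigned to Neurog3. Beside this, its GRO-seq value was 3.66 and 4.38 in RANKL and 3.75 and 3.36 in WENRC.

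At Neurod1, a region of 903 bp over the start (from position -673 to 230) held 60 tags in RANKL against 22.5 in WENRC (2.67-fold), and a second in the gene held 44 against 17.1 (2.57-fold). Its 2 WENRC-higher regions were centred at positions -24598 and -27647, with 20.7 against 7 and 25.2 against 8 tags. The first region overlapped the 3995 bp gene by 230 bp and the second by 626 bp. The start and part of the gene body were thus higher in RANKL and the distant upstream regions higher in WENRC.

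The granin genes also carried more of the mark in RANKL. Chgb had 3 regions, all before the start: the nearest (mm9 chr2:132606262-132606891) reached from position -752 to -123 and held 37 tags against 7.2 (5.14-fold), and those centred at -4184 and -2252 held 19 against 4.5 and 19 against 6.3. Chga had 7 regions, between 28.07 kb before and 3.44 kb after the start, with folds of 2.28 to 3.52; the one nearest its start held 39 against 17.1 tags. Neither granin gene had a WENRC-higher region. Beside these values, the GRO-seq difference RANKL minus WENRC was 0.89 for Chga and 1.68 for Chgb, of which the first passed the test. At Chga higher H3K27me3 and higher nascent transcription in RANKL thus stood side by side; whether they came from the same cells was not tested.

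Pax6 had 3 regions, all in the gene, of which the nearest to an inner start held 64 against 28.8 tags (2.22-fold) and the highest tag density of the members' regions, 128 tags per kb. Rfx6 had 7 within its gene, from 2.35 to 3.47-fold, and 1 WENRC-higher region of 26.1 against 11 tags, which lay 294 bp from a RANKL-higher region of 57 against 24.3 tags. Insm1 had 10 regions, none within 5 kb of its start, reaching 102.8 kb upstream, and 1 WENRC-higher region 38.05 kb upstream. Pax4 had none. Nkx2-2 had none by assignment, although 1 RANKL-higher region lay in its gene body or the 5 kb before it.

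**Figure D4:**
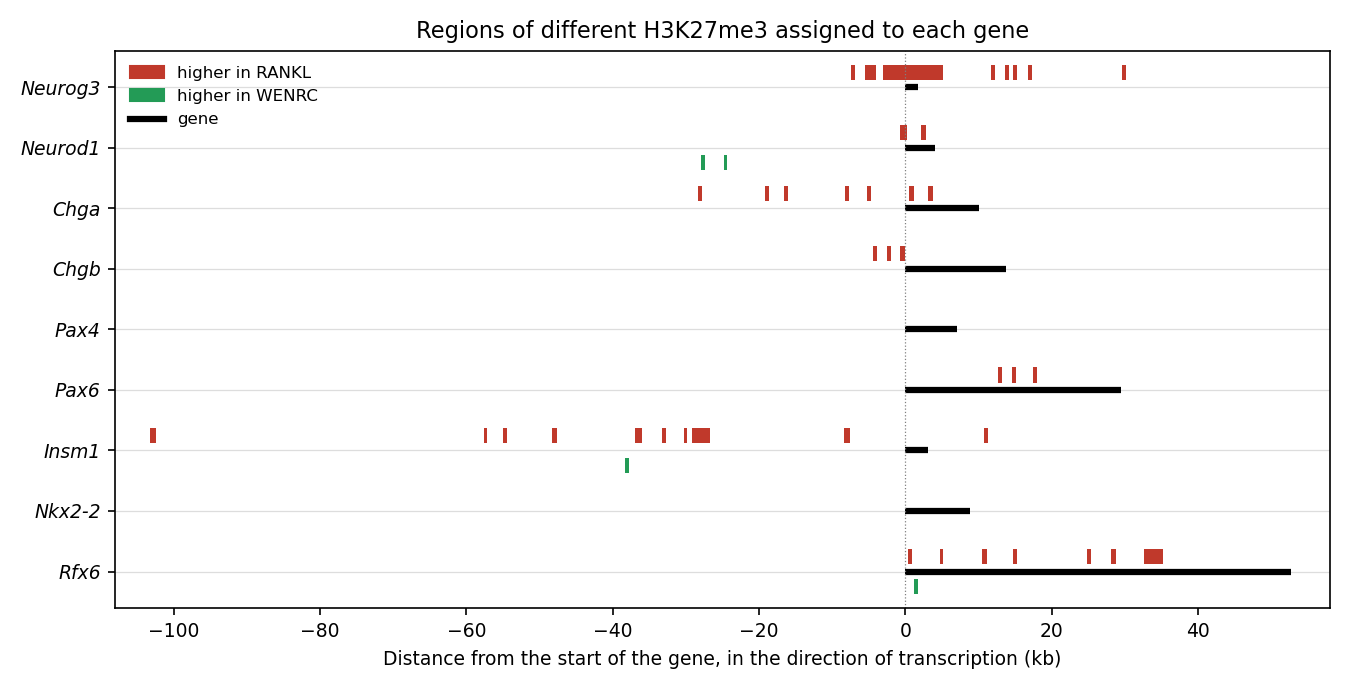
Position of the 44 H3K27me3 regions assigned to the 9 genes, in kb from the start of each gene along its direction of transcription; red bars are higher in RANKL, green bars higher in WENRC, black bars the gene. Neurog3 is covered by one wide red bar, Chgb has 3 red bars before its start, and Pax4 and Nkx2-2 have none.

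RANKL-higher regions within 5 kb of a start were also assigned to 12 of 21 other enteroendocrine factors on autosomes, 12 of 17 granule genes, 5 of 14 hormone and amine genes, 5 of 9 nutrient-sensing genes and 5 of 11 lateral inhibition genes. Of all autosomal genes 17.9% had such a region. The same was counted for 6 of 7 neuron, 5 of 7 stem cell and 3 of 7 goblet markers, 1 of 8 M cell markers and 0 of 8 enterocyte markers. In the remaining marker lists it was 4 of 6 mesenchyme, 2 of 5 leukocyte, 2 of 7 tuft, 2 of 7 Paneth and 1 of 3 glia genes. The members' 6 of 9 lay between the shares of the other factors (12 of 21) and the granule genes (12 of 17).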

How the data were processed

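GRO-seq and H3K27me3 ChIP-seq reads of mouse duodenal cultures were aligned to mm9 with Bowtie2 2.3.4.1 and processed with HOMER and DESeq2, per the submitters' processing notes. The GRO-seq table holds normalized log2 values per gene that the authors deposited, made with HOMER's getDiffExpression.pl, per the file headers; the transform is not named. It also holds the authors' deposited log2 fold changes with p-values and adjusted p-values, whose sign was turned so that each reads as the first culture minus the second. In the H3K27me3 tables the RANKL tags are counts as the authors deposited them, the WENRC tags are a signal the authors scaled to the RANKL depth, and the fold ratio and p-value of each region are the authors' own, per the file headers.

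Genes with at least 2 libraries at log2 of 10 or more (16563) were tested with limma 3.58.1 (R 4.3.3) with a variance trend on all 6 libraries and 3 group means, with no pseudocount, two-sided, Benjamini-Hochberg adjusted over all genes tested; an adjusted p under 0.05 was a call. The script was tested on simulated data. Same-numbered ENRI and WENRC libraries come from the same animal, and their deviations correlated at 0.414. The members and the gene lists were chosen with earlier results of these data known. Named genes were every member, the called genes of the other lists (up to 12 per comparison by size), the leading markers and the nearest 2 profiles of each called member. Of the remaining marker lists, 0 of 3 tested glia genes, 0 of 1 mesenchyme and 0 of 4 leukocyte genes rose in RANKL against ENRI or WENRC, and 1 glia gene and 1 neuron gene fell against ENRI. Intervals and floors were not given because no library counts were used for GRO-seq. Other settings tried were a stricter filter, quantile normalization, only the compared libraries, a replicate block, each library left out and, for regions, limits on distance, fold and p.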

Additional observations from a re-analysis of the deposited data

How the results depend on the processing

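The member changes were set beside 306 values from other settings, among them the authors' deposited values, which were not recomputed. Of these 269 kept their direction and side of the threshold, 11 lost a call, 14 gained one and 12 turned sign, none of the last called. Against ENRI, 1 member was called as reported, 0 with the 4 compared libraries alone or without a RANKL or WENRC library, and 4 by the authors' deposited adjusted p; leaving out 1 library each gave 0 to 2. The stricter filter (log2 of 50) left 4 members to test, without Neurod1, and called 0 of them, with 26.6% of all tested genes. The labels tie the RANKL numbers to no animal, so any pairing is unknown. Deviations of same-numbered libraries correlated at -0.205 between RANKL and ENRI and at -0.323 between RANKL and WENRC. A replicate block against ENRI gave 2 members in all 6 libraries, Neurod1 and Chgb. In the 4 compared it gave 1, which was Chgb, with Neurod1 no longer called. The crossed pairing against ENRI, chosen after seeing the data, gave 0. Of all tested genes, 20.9% were called against ENRI as reported, 11.6% with the 4 compared libraries and 19.6% by the authors' adjusted p. The share was 16.4% with the block in all 6, 8.59% with the block in the 4 compared and 11% with the crossed pairing. Against WENRC, 1 member became 2 with the 4 compared libraries, 3 with the replicate block in those 4, 3 with the crossed pairing and 3 by the authors' adjusted p; with the block in all 6 the call passed from Chga (adjusted p = 0.0607 by limma) to Chgb, and leaving out 1 library each gave 0 to 2. Of all tested genes, 12.1% were called against WENRC as reported, 31.4% with the 4 compared libraries and 28.3% with the block in those 4. The share was 37.7% with the crossed pairing, 27.8% by the authors' adjusted p and 8.845% with the block in all 6. Between WENRC and ENRI the count was 0 under every setting run, the replicate block included. By the authors' adjusted p this 0 may not cover Neurog3 and Neurod1. Some settings could hardly have given another count. In the 4 compared libraries alone 0 genes of the whole table passed, and with the block in those 4 124 did. Leaving out 1 library each, RANKL minus ENRI ran from -0.0011 (without ENRI replicate 1) to 0.52 for Nkx2-2 and from -0.46 (without ENRI replicate 1) to 0.59 for Rfx6, which was -0.094 in the authors' deposited table. RANKL minus WENRC ran from -0.41 to 0.13 (without WENRC replicate 2) for Nkx2-2 and from -0.29 to 0.085 (without WENRC replicate 2) for Rfx6. WENRC minus ENRI ran from -0.87 to 0.30 for Chgb, turning (0.28 and 0.30) without ENRI replicate 2 and WENRC replicate 1, from -0.67 to 0.70 for Pax6, turning (-0.42 and -0.67) without the same libraries and with quantile normalization (-0.028), and from -0.35 to 0.70 for Rfx6, turning (-0.35 and -0.017) without ENRI replicate 1 and WENRC replicate 2. Leaving out a library leaves fewer samples, and beyond that the cause was not tested. Of the 40 RANKL-higher regions, 3 had a fold of at least 4, 16 lay within 5 kb of a start and 22 had p at most 1e-06; of the 4 WENRC-higher regions these numbers were 0, 1 and 0. Counted by position and not by assignment, 21 RANKL-higher regions lay in a member's gene body or the 5 kb before it, among them 1 at Nkx2-2 that is not one of the 40, and 1 WENRC-higher region did. The unknown GRO-seq depth limits Neurog3, Pax4 and Insm1 most, since their values sit near the filter.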
